A study of Mus musculus with 11 samples.

Results

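Type I interferon stimulated genes are the genes that cells switch on after interferon alpha or beta has bound its receptor. A list of 38 of them was taken by gene symbol from a table of 38406 genes, and all 38 symbols stood in the table. The skin came from the backs of female C57BL/6 mice, 8 to 10 weeks old, in which imiquimod, an agonist of the RNA receptor TLR7, produces psoriasis-like inflammation. The shaved back received 125 mg of 5% imiquimod cream per day for 4 days, and skin was taken 24 hours after the last dose. The 2 groups were 5 samples from wild-type mice (WT, replicates 2 to 6) and 6 from Trex2-/- mice (Trex2 KO, replicates 7 to 12), both on imiquimod. The submitters call them biological replicates, and p-values below measure the spread between these samples. Trex2 encodes a 3′-to-5′ DNA exonuclease of keratinocytes. It stood at 1479.6 ± 446 normalized counts in the wild-type libraries and 1.85 ± 0.909 in knockout (SD over 5 and 6 libraries). Skin without imiquimod was not analysed here, so every value below compares the genotypes within treated skin and none measures the response to the drug.

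Interferon alpha and beta bind the receptor IFNAR1/IFNAR2, and the kinases JAK1 and TYK2 at the receptor are switched on. Their signal assembles the complex ISGF3, with IRF9 as its DNA-binding part, which binds a short DNA element, the interferon stimulated response element (ISRE), at the promoters of the genes. The products act against viruses at several steps. Ifit proteins hold back foreign RNA from translation, Oas enzymes make the messenger that activates RNase L, Mx proteins are dynamin-like GTPases, and the RIG-I-like receptors sense viral RNA in the cytosol. In skin these genes are made by keratinocytes, by cells of the dermis and by immigrant leukocytes.

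The ISRE was looked for in RefSeq promoter windows (GRCm38.p6; 250 bases before to 50 after a start site), as GAAA, any 2 bases and GAAA, or as the reverse complement, TTTC, any 2 bases and TTTC, overlapping matches included. Of the 38 genes 29 had a window and 13 of these held at least 1 match, 44.8% against 3.99% of all 27025 genes with a window. Matches stood at 3 of 4 Ifit genes, 3 of 5 Oas genes and 3 of 3 RNA sensors with a window. The others were at Isg15, Bst2, Trim30a and Rsad2. Oasl2, Isg20, Dtx3l and Ifit2 are among the genes with no match, which says only that these letters are not in this stretch. The 8 genes with a match and the smallest p in the comparison of genotypes are shown because their letters can be set beside their values, with up to 40 bases on either side of the match but none after the start site beyond it. They read 5′ to 3′ on the strand of the gene, with the matches in capitals.

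Bst2 (chr8:71537547-71537642, minus strand): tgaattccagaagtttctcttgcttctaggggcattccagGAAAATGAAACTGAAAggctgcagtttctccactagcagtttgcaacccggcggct
Trim30a (chr7:104465194-104465269, minus strand): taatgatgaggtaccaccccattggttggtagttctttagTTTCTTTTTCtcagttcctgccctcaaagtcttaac
Ifit1 (chr19:34640745-34640853, plus strand): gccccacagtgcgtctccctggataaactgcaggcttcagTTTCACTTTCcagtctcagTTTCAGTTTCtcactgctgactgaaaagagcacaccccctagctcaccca
Isg15 (chr4:156200835-156200936, minus strand): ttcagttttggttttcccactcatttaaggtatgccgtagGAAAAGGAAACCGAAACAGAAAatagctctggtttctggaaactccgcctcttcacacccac
Oas3 (chr5:120777685-120777774, minus strand): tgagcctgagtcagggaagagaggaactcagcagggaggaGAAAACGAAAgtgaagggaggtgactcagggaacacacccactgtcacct
Oas1a (chr5:120907526-120907585, minus strand): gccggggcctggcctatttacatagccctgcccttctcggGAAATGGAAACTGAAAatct
Rsad2 (chr12:26456523-26456612, minus strand): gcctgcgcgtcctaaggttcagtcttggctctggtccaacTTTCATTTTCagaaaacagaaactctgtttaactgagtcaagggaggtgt
Ddx58 (chr4:40239814-40239863, minus strand): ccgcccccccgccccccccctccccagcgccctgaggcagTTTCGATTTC

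Isg15 carried 3 overlapping matches in a row, Bst2 and Oas1a 2 overlapping ones and Ifit1 2 separate ones. Those of Trim30a, Ifit1, Rsad2 and Ddx58 have the reverse complement form. The match of Ddx58 lay just after its annotated start. A match describes the letters of the window and is not evidence of binding in these libraries.

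Most of these genes were read at lower levels in Trex2 knockout skin than in wild-type skin, by a modest amount. Of the 38, 34 reached a mean of 10 normalized counts and were tested. Of those, 32 had a negative log2 fold change (knockout relative to wild type, on log2 of the normalized count + 1), against 49.0% of all 13215 genes tested. The median over the 34 was −0.43, a ratio of 0.744, and the median over all genes tested was 0.0081. Single values ran from −0.81 for Bst2 to 0.11 for Parp9. No member passed an adjusted p of 0.05 in limma (0.0151% of all genes did), and the smallest adjusted p was 0.108. At an unadjusted p under 0.05, 15 members were lower and 0 higher, against 11.5% lower and 12.9% higher among all genes tested. On whole reads recovered from the table, edgeR called 0 members lower (0.0227% of all genes) and DESeq2 called 2 lower (2.01% of all genes), Bst2 and Rtp4. Without wild-type replicate 4 limma called the same 2 genes (2.10% of all genes lower).

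The count of 15 changed with the libraries and the model. Without knockout replicates 9 and 12 it was 7, with a median of −0.27. The share of all genes lower at that p fell as well, from 11.5% to 6.00%. These 2 libraries were chosen with earlier results of these data known. The libraries also differed in depth, with 3125366 to 15557862 counted reads in knockout against 1208896 to 5853454 in wild type, and 5 of the 6 knockout libraries were deeper than every wild-type one. With log10 depth as a covariate the count was 2 (2.29% of all genes) and the median −0.31, with 31 of 34 still negative. The part of depth in the lower levels was not tested beyond these values.

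**Figure D1:**
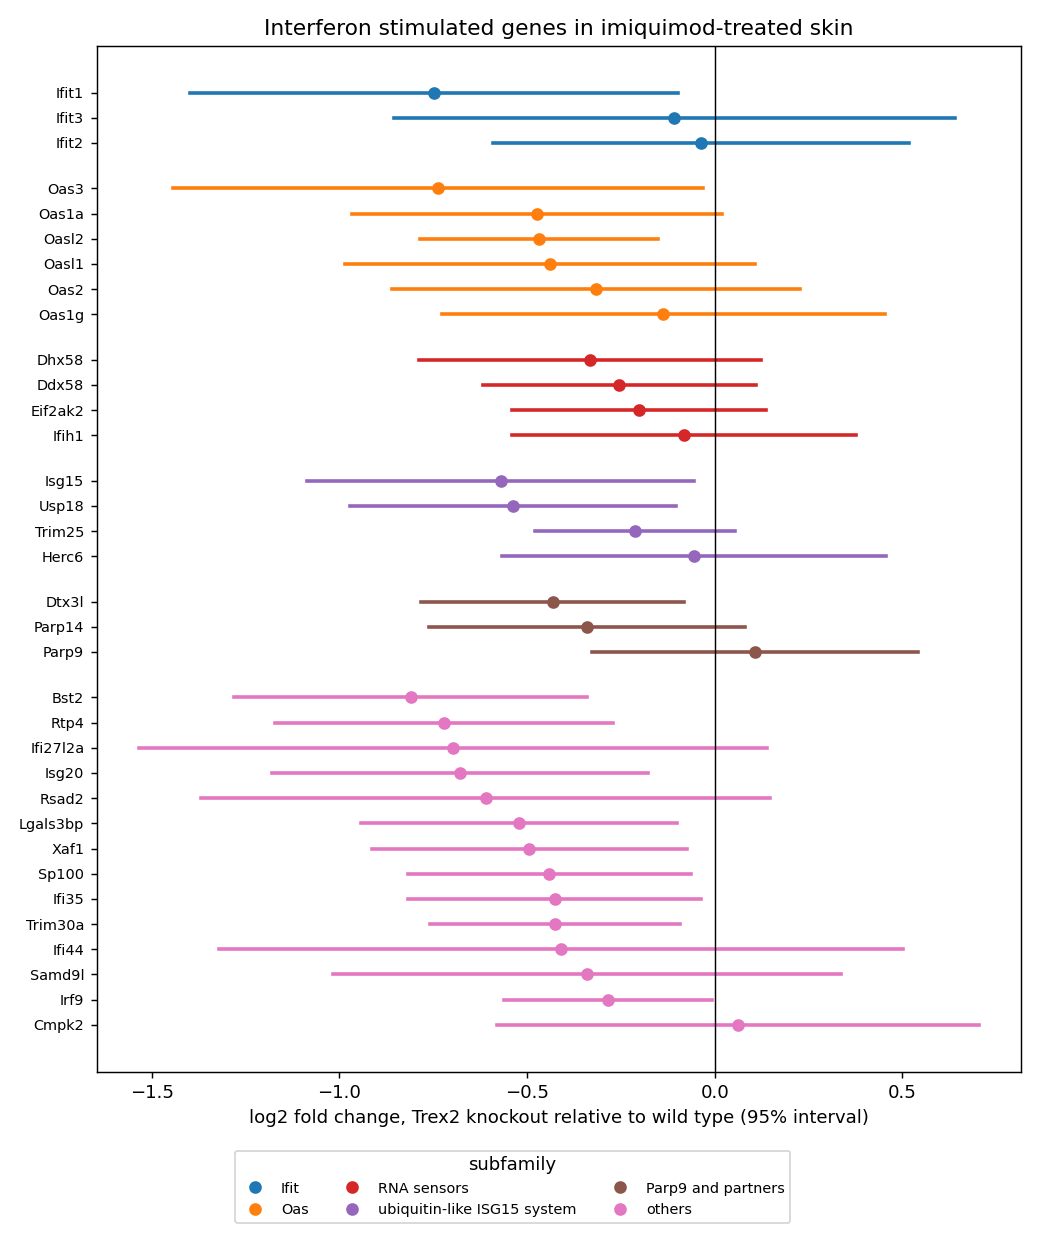
Log2 fold change (Trex2 knockout relative to wild type, horizontal axis) of the 34 tested interferon stimulated genes, ordered within subfamily (colours); bars are 95% intervals from limma. Points lie left of 0 for 32 genes, and 15 intervals lie wholly below 0.

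The Ifit genes, which encode tetratricopeptide proteins that bind viral RNA, lie together on chromosome 19. Their 3 tested members had a median log2 fold change of −0.11, and 1 of them, Ifit1, had an unadjusted p under 0.05. That median was −0.23 without knockout replicates 9 and 12, and −0.57 with the depth covariate. Ifit1, which recognises RNA caps that lack a host methyl group, had 114, 90.3, 87.8, 50.8 and 50.2 normalized counts in wild-type replicates 2 to 6. Its knockout libraries ran from 29.6 to 95.1 (median 39.4). The high knockout value is replicate 12, and the other 5 knockout libraries were all below the lowest wild-type library (log2 fold change −0.75 with SE 0.30, limma adjusted p = 0.162). Without knockout replicates 9 and 12 the log2 fold change of Ifit1 was −1.01.

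Ifit2, which pairs with other Ifit proteins, had 25.4, 58.7, 30.02, 32.7 and 32.95 normalized counts in the wild-type libraries and 27.7 to 60.7 (median 30.02) in knockout. Both groups have 1 high library, wild-type replicate 3 and knockout replicate 12, and the rest lie close together (log2 fold change −0.036 with SE 0.26, limma adjusted p = 0.944). The 95% interval of Ifit2, −0.59 to 0.52, allows a difference in either direction. Ifit3 had 27.2, 13.5, 36.7, 35.4 and 17.3 normalized counts in the wild-type libraries and 13.4 to 45.1 (median 23.4) in knockout. Its groups overlapped throughout (log2 fold change −0.11 with SE 0.35, limma adjusted p = 0.867), and its value in wild-type replicate 3 rests on 3 reads. Whether Ifit1 differed from Ifit2 or Ifit3 in its difference between genotypes was not tested. I830012O16Rik, a close copy of Ifit3 now named Ifit3b, had a mean of 6.45 normalized counts in the wild-type libraries and 7.09 in knockout and was too low to be tested. Reads of these 2 copies can be shared, so their values are uncertain. The RefSeq windows of both held the same pair of ISRE matches.

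The Oas genes encode 2′-5′ oligoadenylate synthetases, enzymes switched on by double-stranded RNA, and the related Oasl proteins. All 6 members, on chromosome 5, had negative log2 fold changes, with a median of −0.45 and 2 at an unadjusted p under 0.05. The Oas median was −0.29 (1 lower at that p) without knockout replicates 9 and 12, and −0.30 (0 lower) with the depth covariate. Oasl2 had the smallest p of the family. It stood at 194, 194, 153, 138 and 163 normalized counts in the wild-type replicates and at 105 to 161 (median 118) in knockout. Knockout replicate 8 was the only knockout library above the lowest wild-type library (log2 fold change −0.47 with SE 0.15, limma adjusted p = 0.113, 95% interval −0.79 to −0.15).

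Oas3, the largest synthetase of the family, had 79.8, 149, 65.6, 87.1 and 108 normalized counts in the wild-type libraries and 23.02 to 95.4 (median 65.3) in knockout. Knockout replicates 9 and 12 were the lowest of all 11 libraries, and knockout replicates 8, 10 and 11 lay among the wild-type values (log2 fold change −0.74 with SE 0.33, limma adjusted p = 0.191). Without replicates 9 and 12 the log2 fold change of Oas3 was −0.32. Oas1g lay nearest to 0, with 19.96, 18.1, 11.1, 23.6 and 23.5 normalized counts in the wild-type libraries and 11.8 to 22.6 (median 17.99) in knockout (log2 fold change −0.14 with SE 0.27, limma adjusted p = 0.777). With log10 depth as a covariate the value of Oas1g was 0.11, the other sign. Its close relative Oas1a had a log2 fold change of −0.47, with a mean of 74.4 in wild type and 52.7 in knockout, and reads may be split between these near copies. Oas2 stood at −0.32 and Oasl1, which limits interferon production by holding back translation of Irf7, at −0.44. With the depth covariate Oas1a was −0.25 and Oasl1 −0.27, and without knockout replicates 9 and 12 they were −0.31 and −0.21.

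Mx1 and Mx2, GTPases that trap viral nucleocapsids, were barely read in either group. Inbred laboratory mice such as C57BL/6 carry defective alleles of both, and the annotation lists Mx2 as a polymorphic pseudogene. Mx1 had 20 reads in the 5 wild-type libraries and 84 in the 6 knockout libraries, and its highest value was 18.05 normalized counts in knockout replicate 12. Mx2 had 18 and 48 reads. Means of Mx1 were 4.85 and 6.43 normalized counts, those of Mx2 4.23 and 3.63, at or near the level that 3 reads give in the shallower libraries. Both Mx genes were too low to be tested, so a difference in them was not tested.

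The cytosolic RNA sensors were all lower on average in knockout, by differences that passed no threshold used here. Ifih1 (MDA5), Ddx58 (RIG-I), Dhx58 (LGP2) and Eif2ak2 (the kinase PKR) had a median log2 fold change of −0.23, and 0 of the 4 reached an unadjusted p of 0.05 in limma, nor did edgeR or DESeq2 call any at an adjusted p of 0.05. Dhx58 had 74.4, 63.2, 84.5, 85.3 and 104 normalized counts in the wild-type libraries and 42.9 to 94.95 (median 63.9) in knockout, with knockout replicates 9, 10 and 12 below every wild-type library (log2 fold change −0.33 with SE 0.21, limma adjusted p = 0.34). The 95% interval of Dhx58 was −0.79 to 0.12. Ddx58 had 132, 194, 183, 173 and 135 in wild type and 92.9 to 164 (median 145) in knockout (log2 fold change −0.25 with SE 0.17, limma adjusted p = 0.363). For both genes replicate 9 was the lowest of all libraries and replicate 12 was also under the wild-type range, while the other knockout libraries overlapped with wild type except replicate 10 of Dhx58.

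Ifih1 lay nearest to 0, with 70.8, 99.3, 156, 99.8 and 86.3 normalized counts in the wild-type libraries and 61.9 to 120.4 (median 98.8) in knockout (log2 fold change −0.082 with SE 0.21, limma adjusted p = 0.831). Its 95% interval of −0.54 to 0.38 leaves room for a difference of the size seen at Oasl2. Eif2ak2, which halts translation when it meets double-stranded RNA, stood at 164 ± 26.5 and 143 ± 25.5 normalized counts (SD over 5 and 6 libraries; log2 fold change −0.20). Without knockout replicates 9 and 12 the median of the 4 sensors was −0.10, with Ddx58 at −0.087 and Dhx58 at −0.11. With the depth covariate their median was −0.27 and all 4 were negative. Ifih1 was −0.24 in that fit, Ddx58 −0.17, Dhx58 −0.38 and Eif2ak2 −0.29. Whether the sensors differ from the other members was not tested.

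Isg15 encodes a ubiquitin-like protein that is attached to other proteins, Herc6 the mouse ligase that attaches it, Usp18 the protease that removes it and that also damps the interferon receptor, and Trim25 a ligase that acts on RIG-I. Their median was −0.37 with 2 lower at an unadjusted p under 0.05, and 1 lower both without knockout replicates 9 and 12 and with the depth covariate. Isg15 had 125, 63.2, 63.4, 80.8 and 80.02 normalized counts in the wild-type libraries and 37.3 to 88.5 (median 49.2) in knockout. Wild-type replicate 2 was the highest library and knockout replicate 7 the highest of its group, while the remaining wild-type values lay between 63.2 and 80.8 (log2 fold change −0.57 with SE 0.24, limma adjusted p = 0.173). Usp18 had 39.9, 31.6, 36.7, 42.7 and 42.4 in wild type, a narrow range, and 19.1 to 38.2 (median 24.9) in knockout. For Usp18, 5 knockout libraries were below every wild-type library and replicate 12 was not (log2 fold change −0.54 with SE 0.20, limma adjusted p = 0.145). With the depth covariate Isg15 was −0.38 and Usp18 −0.70, and without knockout replicates 9 and 12 they were −0.41 and −0.56.

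Herc6 showed no difference beyond its spread. It had 34.5, 27.1, 44.5, 48.1 and 37.7 normalized counts in the wild-type libraries and 24.5 to 58.9 (median 35.4) in knockout, where replicate 8 was the highest of all 11 libraries (log2 fold change −0.055 with SE 0.24, limma adjusted p = 0.904). With the depth covariate Herc6 was −0.26. Trim25 had 487 ± 55.9 and 421 ± 54.97 normalized counts (SD over 5 and 6 libraries; log2 fold change −0.21). The E1 and E2 enzymes of the same conjugation pathway are no members of the list. Uba7, the activating enzyme, stood at −0.53 (SE 0.16, limma adjusted p = 0.108), each of its 6 knockout values being under the lowest wild-type one. Ube2l6, the conjugating enzyme, stood at −0.76 (SE 0.18, limma adjusted p = 0.108; DESeq2 adjusted p = 0.0205). With the depth covariate Uba7 was −0.35 and Ube2l6 −0.47.

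Dtx3l was the 1 member of 34 whose knockout libraries all lay below every wild-type library, against 1.29% of all genes tested. No member had every knockout library above every wild-type library (1.02% of all genes tested did). It encodes a ubiquitin ligase that works in a complex with the ADP-ribosyltransferase homologue PARP9. Dtx3l had 138, 171, 180.1, 142 and 139.6 normalized counts in the wild-type libraries and 85.02 to 137 (median 125) in knockout. The gap between the groups was narrow, since the lowest wild-type library was replicate 2 and the highest knockout library replicate 10 (log2 fold change −0.43 with SE 0.16, limma adjusted p = 0.146). With TMM or upper quartile scaling in place of the authors' size factors the ranges of Dtx3l overlapped, and the count of such members was 0. When 1 library was left out the count was 5 without knockout replicate 7, 3 without wild-type replicate 2 or knockout replicate 12, 2 without wild-type replicate 4 or 6 or knockout replicate 8 or 11, and 1 otherwise. Leaving out a library makes such separation easier for any gene. The share of 1.29% is for all 11 libraries, and the shares for these settings were not worked out, so these counts have no background. Parp14, a mono-ADP-ribosyltransferase, had 178, 221, 215, 197 and 137 in wild type and 101 to 195 (median 157) in knockout, with overlapping groups (log2 fold change −0.34 with SE 0.20, limma adjusted p = 0.293). Dtx3l was −0.39 and Parp14 −0.22 without knockout replicates 9 and 12, and they were −0.60 and −0.51 with the depth covariate.

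Parp9 was the member with the highest log2 fold change. Its libraries ran over the same range in both groups, with 63.5, 54.2, 86.7, 98.9 and 104 normalized counts in the wild-type libraries and 58.7 to 99.7 (median 90.2) in knockout (log2 fold change 0.11 with SE 0.20, limma adjusted p = 0.761). With log10 depth as a covariate the value of Parp9 was −0.21. Parp9 and Dtx3l stand head to head on chromosome 16 (GENCODE M21, GRCm38). Dtx3l spans 35926511 to 35939151 on the minus strand and Parp9 35938470 to 35972605 on the plus strand, which leaves 682 shared bases. No source used here gives the strand setting of the authors' counting, and reads of the shared stretch may belong to either gene.

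Of the 15 members outside these families 14 were tested, with a median log2 fold change of −0.47 and 9 at an unadjusted p under 0.05, all lower, where 11.5% of all genes tested were. For these 14 the median was −0.37 (3 lower at that p) without knockout replicates 9 and 12, and −0.31 (0 lower) with the depth covariate. Bst2 (tetherin) holds budding virus at the cell surface and is also a marker of plasmacytoid dendritic cells and plasma cells. Bst2 had 259.5, 266, 170.1, 227 and 303 normalized counts in the wild-type libraries and 85.03 to 226 (median 138) in knockout. Knockout replicate 7 lay among the wild-type libraries and the other 5 lay below all of them (log2 fold change −0.81 with SE 0.22, limma adjusted p = 0.108; DESeq2 adjusted p = 0.0334). Its 95% interval was −1.28 to −0.34, and with log10 depth as a covariate its log2 fold change was −0.33. Bst2 lies on chromosome 8, 71534255 to 71537456, minus strand (GENCODE M21, GRCm38).

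Rtp4, a chaperone of G protein-coupled receptors, had 111, 162, 77.8, 81.7 and 109.8 normalized counts in the wild-type libraries and 48.4 to 86.8 (median 64.96) in knockout. Only knockout replicate 7 exceeded the lowest wild-type library (log2 fold change −0.72 with SE 0.21, limma adjusted p = 0.108; DESeq2 adjusted p = 0.0386). Rtp4 lies on chromosome 16, 23520291 to 23614222, plus strand. With log10 depth as a covariate its log2 fold change was −0.29. Cmpk2, a mitochondrial nucleotide kinase, lay nearest to 0 with 27.2, 40.6, 16.7, 29.05 and 25.1 normalized counts in the wild-type libraries and 16.2 to 49.98 (median 26.6) in knockout (log2 fold change 0.062 with SE 0.30, limma adjusted p = 0.914). Its neighbour on chromosome 12, Rsad2 (viperin), which makes a chain-terminating nucleotide, had 38.1, 81.2, 34.5, 76.2 and 26.7 in wild type and 20.8 to 70.5 (median 27.5) in knockout (log2 fold change −0.61 with SE 0.35, limma adjusted p = 0.294). Both genes were highest among the knockout libraries in replicate 12. Cmpk2 was −0.11 without replicates 9 and 12 and 0.37 with the depth covariate. Rsad2 was −0.89 and −0.77 in these 2 fits.

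Isg20, a 3′-to-5′ RNA exonuclease, had a mean of 91.7 ± 20.01 normalized counts in the wild-type libraries and 58.4 ± 18.9 in knockout (SD over 5 and 6 libraries; log2 fold change −0.68). Irf9, the DNA-binding part of ISGF3, stood at −0.28 with 195 ± 31.7 and 159 ± 11.4. Xaf1, an antagonist of the apoptosis inhibitor XIAP, stood at −0.49, Lgals3bp, a secreted galectin-binding glycoprotein, at −0.52 and Sp100, a scaffold of nuclear bodies, at −0.44. Trim30a stood at −0.43, Ifi35 at −0.43, Samd9l, an inhibitor of translation, at −0.34 and Ifi44 at −0.41. With the depth covariate Xaf1 was −0.14, Isg20 −0.35, Irf9 −0.14, Sp100 −0.24 and Ifi35 −0.26. Trim30a was −0.34 in that fit, Lgals3bp −0.48, Samd9l −0.49 and Ifi44 −0.51. Leaving out knockout replicates 9 and 12 gave −0.45 for Isg20, −0.27 for Lgals3bp, −0.21 for Sp100, −0.27 for Trim30a and −0.047 for Samd9l. It gave −0.22 for Irf9, −0.43 for Xaf1, −0.31 for Ifi35 and −0.43 for Ifi44. These 9 had limma adjusted p-values of 0.125 to 0.566. Ifi44l had 0 reads in all 11 libraries, in which 3 reads would give 1.04 to 13.5 normalized counts.

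Ifi27l2a had the widest spread of the 34 members on the log2 scale in knockout, and Ifi44 in wild type. Ifi27l2a, a small mitochondrial and nuclear envelope protein, had 1031, 338, 335, 289 and 331 normalized counts in the wild-type libraries and 129 to 539.6 (median 229) in knockout, and wild-type replicate 2 was 3.19 times the mean of the other wild-type libraries. The SD of its log2 values was 0.75 in wild type and 0.79 in knockout, against medians of 0.32 and 0.40 over the 34 members, and 0.98 and 0.42 for Ifi44. Its log2 fold change of −0.70 had an SE of 0.39 (limma adjusted p = 0.28). Without wild-type replicate 2 it was −0.36, and without knockout replicate 7, the highest of its group, it was −0.92. With log10 depth as a covariate it was −0.053.

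**Figure D2:**
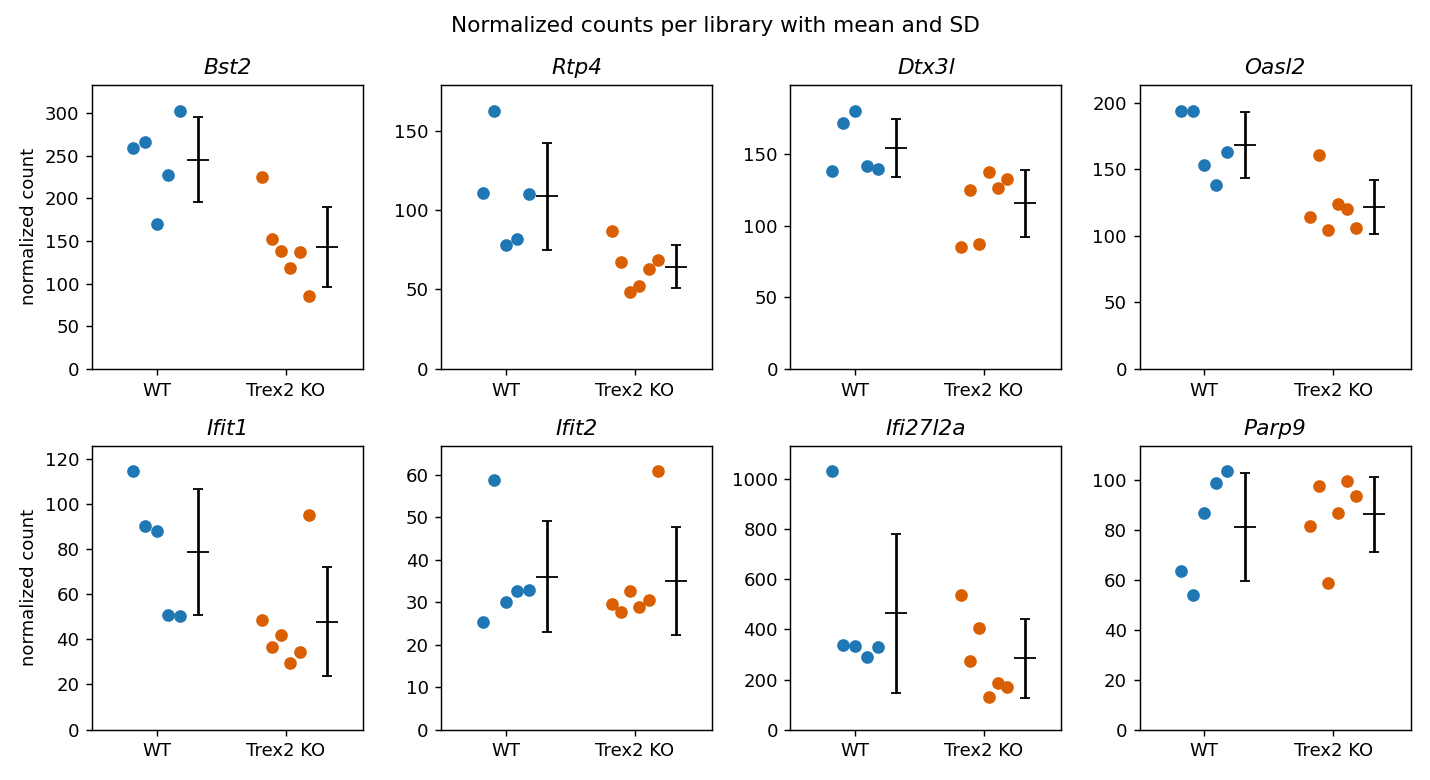
Normalized counts (vertical axis, from 0) of 8 interferon stimulated genes in each wild-type (blue, n = 5) and Trex2 knockout (orange, n = 6) library; black marks are the mean and SD. For Dtx3l the groups do not overlap, for Bst2 and Rtp4 1 knockout library lies among the wild-type values, and for Ifit2 and Parp9 the groups share 1 range.

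Per kilobase of annotated exon, which allows levels of different genes to be compared, Ifi27l2a was the highest member in wild type with 1004 normalized counts per kilobase, and 614 in knockout. Bst2 followed with 271 and 158, Lgals3bp with 264 and 187, Isg15 with 109 and 73.8 and Trim25 with 84.6 and 73.2. Bst2 and Lgals3bp were close to each other in wild type relative to their spread. At the lower end among tested members were Ifi44 with 2.35 and 1.54 and Herc6 with 4.13 and 4.05. The lengths are the union of all annotated exons, so a gene that uses a short transcript is placed too low.

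The members did not move as 1 block from library to library. A knockout library was the lowest of the 11 for 30 of 34 members, replicate 9 for 14 of them. A wild-type library was the highest for 29, and replicate 3, the shallowest, for 12. Of the 11 libraries 6 were knockout. Shares over all genes were not worked out, so these counts have no background. Within the knockout group replicate 7 was the highest for 9 members and the lowest for 5, again with no share over all genes. Being at both ends is therefore not particular to 1 library. Replicate 12 was at both ends too. It was the highest knockout library for 7 members (Ifit1, Ifit2, Ifit3, Ifih1, Usp18, Rsad2 and Cmpk2) and the lowest for 7 others (Oas1a, Oas1g, Isg20, Bst2, Trim30a, Ifi35 and Sp100). Its level was 2.75 times the mean of the other 5 knockout libraries for Rsad2, 2.49 for Ifit1 and 2.04 for Ifit2, but 0.551 for Bst2 and 0.562 for Isg20. These libraries and genes were singled out after their values were seen. The mean of the 3 Ifit genes (log2, each centred over the 11 libraries) was 0.83 in that library and that of the 6 Oas genes −0.48.

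**Figure D3:**
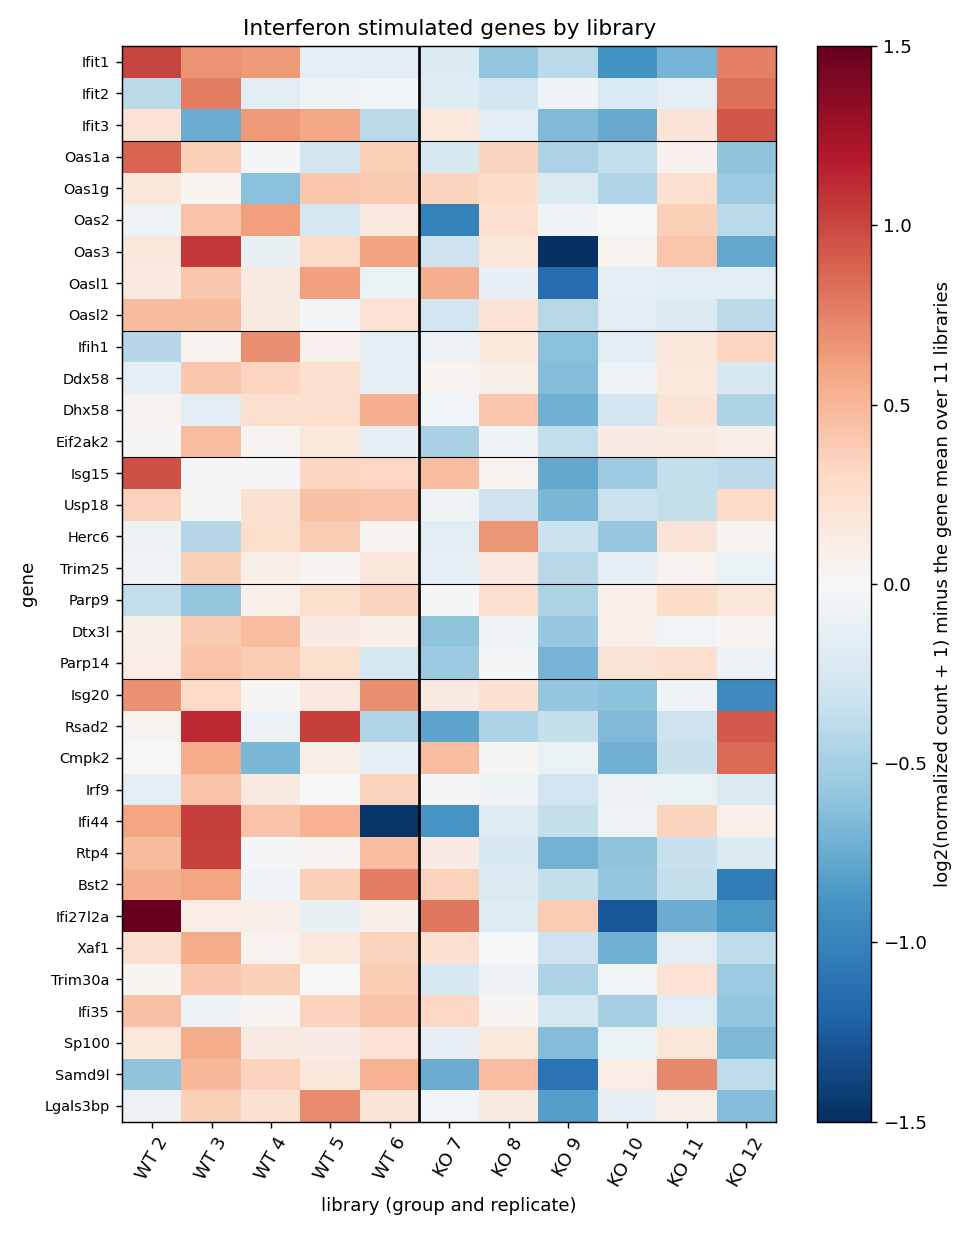
Log2(normalized count + 1) minus the mean over 11 libraries (colour, red above and blue below the mean) for the 34 tested genes (rows, grouped by subfamily) in 5 wild-type (left) and 6 Trex2 knockout (right) libraries. Knockout replicate 9 is mostly blue, and knockout replicate 12 is red for Ifit1, Ifit2, Ifit3, Rsad2 and Cmpk2 and blue for Bst2, Isg20 and Sp100.

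Markers of the cells that make up the skin differed in the same libraries. All 10 pan-leukocyte markers, Ptprc (CD45) among them, were detected and had negative log2 fold changes, with a median of −0.72. Their summed level was 14972 to 22247 normalized counts in the wild-type libraries and 6526 to 17856 in knockout. All 10 keratinocyte markers were positive, with a median of 1.27 and sums of 44497 to 112850.0 and 70749.5 to 225363. Without knockout replicates 9 and 12 the leukocyte median was −0.34 and the keratinocyte median 0.82, and with the depth covariate −0.51 and 0.79. The mean centred log2 level of the 34 interferon stimulated genes was −0.51 in knockout replicate 9 and −0.16 in replicate 12, where the leukocyte markers stood at −0.92 and −1.07 and the keratinocyte markers at 1.85 and 1.85. Knockout replicates 8 and 11, picked with their values in view, stood at 0.37 and 0.14 for the pan-leukocyte markers, against 0.11 to 0.64 in wild type. The interferon stimulated genes stood at 0.028 and −0.0099 in them, against 0.14 to 0.35 in wild type. T and natural killer cell markers (5 tested) stood at −0.74 and −0.0080 in these 2 libraries, against 0.034 to 0.89 in wild type. Neutrophil markers stood at 0.61 and 0.055, against −0.24 to 1.16 in wild type. Monocyte and macrophage markers stood at 0.15 and 0.22, against 0.11 to 0.52. The part of cell content in the lower levels was not tested, and in bulk skin fewer cells of a type and less RNA per cell cannot be told apart.

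**Figure D4:**
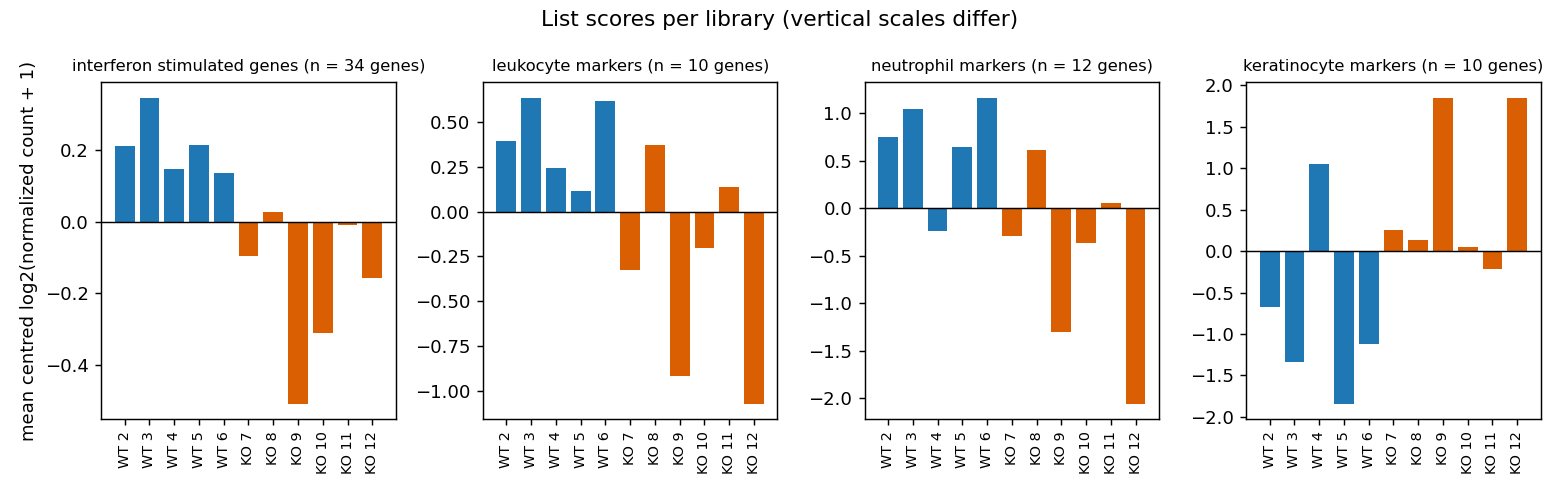
Mean over the tested genes of each list of log2(normalized count + 1), each gene centred on its mean over 11 libraries (vertical axis, scales differ), for wild-type (blue) and Trex2 knockout (orange) libraries. Knockout replicates 9 and 12 are lowest for leukocyte and neutrophil markers and highest for keratinocyte markers, while the interferon stimulated genes are lowest in replicates 9 and 10.

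Transcripts of the interferons themselves were nearly absent from both groups at this time. Of 21 ligand genes, 17 had 0 reads in all 11 libraries, Ifnb1 and every Ifna gene of the list among them, and the whole list had 19 reads. Ifng had 7 reads in wild type and 3 in knockout, and Ifnk, the keratinocyte interferon kappa, 0 and 4. No difference in ligands was detectable at this depth.

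The receptor genes were all read and all 6 were lower on average in knockout, with a median log2 fold change of −0.34 and 3 at an unadjusted p under 0.05 (11.5% of all genes tested were lower at that p). The receptor median was −0.21 (1 lower at that p) without knockout replicates 9 and 12, and −0.33 (0 lower) with the depth covariate. Ifnar2, the ligand-binding chain of the type I receptor, had 643 ± 81.5 normalized counts in the wild-type libraries and 408 ± 110.1 in knockout (SD over 5 and 6 libraries), each of the 6 knockout values being under the lowest wild-type one (log2 fold change −0.69 with SE 0.18, limma adjusted p = 0.108; DESeq2 adjusted p = 0.0359). Its partner Ifnar1 had a log2 fold change of −0.20 (SE 0.18). Ifngr1, a chain of the interferon gamma receptor, stood at −0.34 (SE 0.13). Ifnar2 was −0.45 and Ifnar1 −0.011 without the same 2 knockout libraries, and −0.43 and −0.30 with the depth covariate.

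Among 11 kinases and transcription factors of the pathway the median was −0.10, with 9 negative and 2 lower at an unadjusted p under 0.05, a share near the 11.5% of all genes tested. Without knockout replicates 9 and 12 the median was −0.036 with 6 negative. The 2 genes were Irf1, a factor induced by both interferon types, and Irf7, the factor that amplifies interferon alpha. Irf1 had 173 ± 18.2 and 119.5 ± 17.1 normalized counts, each of the 6 knockout values being under the lowest wild-type one (log2 fold change −0.54 with SE 0.14, limma adjusted p = 0.108; DESeq2 adjusted p = 0.0244). Irf7 had 191 ± 22.9 and 142 ± 26.04 (log2 fold change −0.44 with SE 0.14, limma adjusted p = 0.116). Stat2, a component of ISGF3, was close to 0 at −0.10 (SE 0.13), as was Jak1 at −0.0082. Irf7 was −0.15 with the depth covariate.

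Genes that carry the signal from RNA sensors and Toll-like receptors had a median of 0.022 over 12 tested, with 0 lower and 1 higher at an unadjusted p under 0.05 (11.5% and 12.9% of all genes tested). The median was 0.11 without knockout replicates 9 and 12. That gene was Traf6, a ubiquitin ligase of Toll-like receptor signalling, at 0.75 (SE 0.28, limma adjusted p = 0.139), followed by Mavs, the adaptor of RIG-I and MDA5, at 0.25. Tlr7, the receptor of imiquimod, stood at −0.25 (SE 0.30). Traf6 was 0.44 and Tlr7 −0.014 without those libraries. Of 6 feedback inhibitors 2 were lower and 1 higher at that p, with a median of −0.28, which was −0.10 without those libraries. Ptpn6, a phosphatase of blood cells, stood at −0.61 (SE 0.19) and Ptpn11, its widely expressed relative, at 0.43 (SE 0.17).

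A second list of interferon stimulated genes, with no member in common, gave 46 of 59 tested genes with negative log2 fold changes and a median of −0.41. At an unadjusted p under 0.05, 28 were lower and 1 higher, against 11.5% and 12.9% of all genes tested. Limma called 0 at an adjusted p of 0.05, edgeR 0 and DESeq2 8 lower (2.01% of all genes for DESeq2). For this list the median was −0.27 (15 lower at that p) without knockout replicates 9 and 12, and −0.33 (7 lower) with the depth covariate. Of the 59, 3 had every knockout library below every wild-type library, namely Trim12c, Uba7 and Shisa5, against 1.29% of all genes tested. Trim12c, a relative of Trim30a and the gene of smallest p in this list, had 188 ± 104 and 78.4 ± 18.4 normalized counts (log2 fold change −1.15 with SE 0.27, limma adjusted p = 0.108; DESeq2 adjusted p = 0.0105). Shisa5, a protein of the endoplasmic reticulum, had 1052 ± 102 and 792 ± 102 (log2 fold change −0.41 with SE 0.12, limma adjusted p = 0.108; DESeq2 adjusted p = 0.0379). The GBP and IRG GTPases, which answer mainly to interferon gamma, had a median of −0.27 over 13 tested, with 4 lower at an unadjusted p under 0.05 (11.5% of all genes tested). Their median was −0.11 (1 lower at that p) without knockout replicates 9 and 12, and −0.53 (4 lower) with the depth covariate. Gbp3 stood at −0.49 (SE 0.15, limma adjusted p = 0.109) with each of the 6 knockout values under the lowest wild-type one, and Gbp2 at −0.62 (SE 0.21). Whether these lists differ from the 34 members was not tested.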

How the data were processed

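RNA was sequenced from 11 imiquimod-treated skin samples that the submitters call biological replicates. The table the authors deposited holds a normalized signal, read counts of each gene divided by 1 size factor per library. The tools named in the submitters' processing notes, with no role or order, are DESeq2 1.8.1, featureCounts 1.4.6 and TopHat2 2.0.8, and the build is GRCm38. No source used here gives the annotation version or the strand setting. Columns were matched to samples by the replicate number in the titles. Divided by the smallest value of its library, each entry gave a whole number (100% within 0.01), which recovered the reads, 1208896 to 15557862 per library. Values of low genes in the shallowest library, wild-type replicate 3, move in steps of 4.51 normalized counts.

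The test was limma 3.58.1 (R 4.3.3) with the trend option, on log2(normalized count + 1) of the 13215 genes with a mean of at least 10, two-sided, with Benjamini-Hochberg adjustment over all of them and a threshold of 0.05. A fold change on this scale understates that of low genes. The recovered reads were also tested with edgeR 4.0.16 and DESeq2 1.42.0 under the authors' size factors. Other alternatives were pseudocounts of 0.5 and 5, no minimum or a minimum of 50, TMM and upper quartile scaling, log10 depth as a covariate, leaving out each library or knockout replicates 9 and 12, and only the 7 libraries of intermediate depth (WT 2, 4, 5 and 6, KO 7, 8 and 9). On simulated counts for these 13215 genes with 200 genes changed, limma recovered 55% of those changed by 1 on the log2 scale and 96% of those changed by 2, with 3 unchanged genes called.

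The members, gene lists and alternatives were chosen with earlier results of these data known. All members are named. Full values are given for those with no overlap between groups, the 2 of smallest p and the 1 nearest 0 in each subfamily, and from pathway lists for genes with no overlap and the 2 of smallest p. Any other gene with values was picked with those values in view. Positions and exon lengths come from GENCODE M21 and promoters from RefSeq (GRCm38.p6).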

Additional observations from a re-analysis of the deposited data

Results flagged for a closer look

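Both ends of 68 sets of values (34 genes in each of 2 groups) were checked by Dixon's criterion at 95%. For normally distributed values about 1 of 20 sets passes at either end, high or low. In 8 sets the highest library stood apart from the rest of its group, and in 0 the lowest did. The check used normalized counts and not their logs, on which high values stand apart more easily than low ones. The sets also share libraries, so the rate of 1 in 20 is only a guide. Knockout replicate 12 accounts for 3, with 95.1 normalized counts of Ifit1, 60.7 of Ifit2 and 70.5 of Rsad2. Wild-type replicate 2 had 125 of Isg15 and 1031 of Ifi27l2a. Wild-type replicate 3, the shallowest library, had 58.7 of Ifit2 and 384 of Sp100, and knockout replicate 8 had 161 of Oasl2.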

How the results depend on the processing

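The median log2 fold change of the tested members was negative under all 22 alternatives, from −0.46 without knockout replicate 11 to −0.27 without knockout replicates 9 and 12, and from −0.46 to −0.35 when 1 library was left out. The number with a negative value was 29 to 33 of 34 with 1 library left out. The number past an adjusted p of 0.05 was 0 in limma, 2 with DESeq2, and 0 to 2 with 1 library left out (2 without wild-type replicate 4). The number with every knockout library below every wild-type library, 1 with all libraries, was 0 with TMM and 0 with upper quartile scaling, 3 without knockout replicates 9 and 12, 4 in the 7 libraries of intermediate depth and 1 to 5 with 1 library left out, 5 being without knockout replicate 7. Fewer libraries make such separation easier for any gene. Shares over all genes were not worked out for the reduced sets, so a rise of this count is no result about the members. Of 739 single values, 707 kept their direction and side of the threshold, 4 passed it (Bst2 and Rtp4 in DESeq2 and without wild-type replicate 4) and 28 changed sign, all of them in 7 genes near 0. With 1 library left out, Ifit2 ran from −0.20 to 0.15, Ifit3 from −0.31 to 0.037, Ifih1 from −0.20 to 0.080, Herc6 from −0.19 to 0.055, Cmpk2 from −0.10 to 0.21 and Parp9 from −0.026 to 0.21. Ifit2 was 0.064 in edgeR, 0.067 in DESeq2 and 0.040 with the depth covariate. Oas1g was 0.11 with the depth covariate, 0.022 without knockout replicates 9 and 12 and 0.046 in the 7 libraries. Parp9 was −0.21 with the depth covariate and −0.16 in the 7 libraries, and without knockout replicates 9 and 12 Herc6 was 0.0029 and Cmpk2 −0.11. The cause was not tested. No paired analysis was possible because the groups share no replicate number. Depth limits the low members, since 6 of 34 had under 10 reads in wild-type replicate 3.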

Other observations

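Plasmacytoid dendritic cells, the specialised makers of type I interferon, left little trace in these libraries. Siglech, their lectin, had 9.62 ± 11.2 normalized counts in the wild-type libraries and 4.70 ± 2.67 in knockout (SD over 5 and 6 libraries), or 26 and 47 reads, and was too low to be tested. Ccr9 had 12 and 94 reads, Klk1 1 and 0, and Pacsin1 1 and 2. Read totals are not scaled for depth, and most knockout libraries were deeper than the wild-type ones, so they do not compare the groups. Of the 8 markers 4 were tested (median log2 fold change −0.45, or −0.17 without knockout replicates 9 and 12 and −0.27 with log10 depth as a covariate), and those 4, Cox6a2, Runx2, Tcf4 and Ly6d, are expressed by further skin cells too. Of these 4, 2 were lower at an unadjusted limma p under 0.05 (11.5% of all genes tested were). That count was 1 without knockout replicates 9 and 12 and 0 with the depth covariate. DESeq2 called 1 lower (2.01% of all genes), and 1 had every knockout library below every wild-type library (1.29%). The sum of the list, 3322 to 11235 in the wild-type libraries against 5744 to 11928 in knockout, is mostly Ly6d, a keratinocyte gene.

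The other marker lists stood as follows in median log2 fold change, where 11.5% of all genes tested were lower at an unadjusted p under 0.05. Neutrophil markers were at −1.15 (12 tested, 11 lower at that p). Their median was −0.69 (3 lower at that p) without knockout replicates 9 and 12, and −0.65 (1 lower) with the depth covariate. T and natural killer cell markers were at −1.10 (5 tested, 4 lower). For them it was −0.91 (3 lower at that p) without knockout replicates 9 and 12, and −0.72 (1 lower) with the depth covariate. Monocyte and macrophage markers were at −0.60 (12 tested, 6 lower). This became −0.32 (2 lower at that p) without knockout replicates 9 and 12, and −0.33 (0 lower) with the depth covariate. Endothelial markers were at −0.44 (8 tested, 3 lower) and adipocyte markers at −0.33 (6 tested, 2 lower). Skeletal muscle markers were at −0.28 (6 tested, 1 lower) and fibroblast markers at −0.28 (8 tested, 0 lower). Hair follicle markers were at 0.72 (4 tested) and Langerhans and dendritic cell markers at 0.57 (7). Without knockout replicates 9 and 12 endothelial markers were at −0.10 (1 lower at that p), adipocyte markers at −0.37 (0 lower) and skeletal muscle markers at −0.015. Fibroblast markers were then at −0.23, hair follicle markers at 0.33 and Langerhans and dendritic cell markers at 0.47. With the depth covariate endothelial markers were at −0.32 (0 lower), fibroblast markers at −0.33 (0 lower) and adipocyte markers at −0.049 (0 lower). Skeletal muscle markers were at −0.050 in that fit, hair follicle markers at 0.43 and Langerhans and dendritic cell markers at 0.11. Among these lists limma called 0 genes at an adjusted p of 0.05 and edgeR 1, a T and natural killer cell marker that was lower (0.0227% of all genes were). DESeq2 called 2 T and natural killer cell, 2 neutrophil and 1 monocyte and macrophage marker lower (2.01% of all genes were). Many of the interferon stimulated genes are expressed by several of these cell types.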
